A study of Homo sapiens with 13 samples.

Results

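Regions at gene 3′ ends are stretches of open chromatin that lie where protein-coding genes stop, away from any start site. They were taken from ATAC-seq of H82 and H146, lines grown from human small cell lung cancer (SCLC). ATAC-seq reads mark DNA that the Tn5 transposase can reach, and each line has 1 deposited list of regions, its atlas. A region on chromosomes 1 to 22 was counted if it came within 500 bp of the 3′ end of a protein-coding gene and lay over 2 kb from the transcription start site (TSS) of every annotated transcript. GENCODE release 44 on hg38 gave the ends and the start sites. The rule found 2007 regions in H82 and 1657 in H146, or 3664 of the 381022 regions in both atlases. The other distal regions, also over 2 kb from any TSS, numbered 147582 in H82 and 123269 in H146.

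H146 belongs to the SCLC-A subtype and H82 to the NEUROD1-driven subtype, SCLC-N. Both lines are labelled wild type (WT) and were cultured in RPMI. H146 had 4 untreated samples and 3 treated with FHD-286, a drug that blocks SMARCA4 and SMARCA2, the motors of the SWI/SNF chromatin remodeller, and H82 had 3 untreated and 3 treated samples. FHD-286 was given at 100 nM for 14 days and renewed during that time. Each atlas pools the untreated and treated libraries of its line, so an effect of FHD-286 was not testable. The H82 atlas has a region within 1 kb of a NEUROD1 TSS and the H146 atlas has none, while both have one at CHGA. Line cannot be told apart from number of libraries, sequencing depth and DNA copy number, and depth is unknown. Each line is 1 culture lineage, and all tests below are over 22 chromosomes, so they say nothing about the spread between cultures.

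At the 3′ end of a gene the new transcript is cut and given a poly(A) tail. The cut follows a poly(A) signal, most often the word AATAAA, and RNA polymerase then runs on past the end before it lets go of the DNA. DNA around poly(A) sites is usually rich in A and T and poor in nucleosomes. Enhancers and CTCF sites can also lie near gene ends, and 2 genes may end facing each other, which is called a convergent pair.

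A set of 5 short regions is given as examples. Each is at most 300 bp wide, lies wholly outside annotated exons and is among the 2 nearest to their gene end in its class. They do not stand for all regions at gene ends, which had median widths of 562 bp in H82 and 572 bp in H146. Of all these regions, 64% in H82 and 66.9% in H146 touched an annotated exon. The 5 sequences run 5′ to 3′ on the strand of the gene, downstream of its end. Capitals mark words from the set of 12 searched, on either strand. The first pair was open in both lines. ZDHHC3 (a palmitoyltransferase gene, minus strand) had a region of 200 bp in H82, wholly inside an H146 region, with its centre 123 bp beyond the end. GTF2I (a transcription factor gene, plus strand, with near-identical copies nearby that can blur read placement) had one of 260 bp. Their capitals mark a TEAD word and a pair of E-boxes.
ZDHHC3, chr3:44915035-44915234: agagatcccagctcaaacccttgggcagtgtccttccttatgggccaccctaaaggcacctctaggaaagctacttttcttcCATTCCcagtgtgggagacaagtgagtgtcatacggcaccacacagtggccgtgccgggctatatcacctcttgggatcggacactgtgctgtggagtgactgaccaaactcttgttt
GTF2I, chr7:74760704-74760963: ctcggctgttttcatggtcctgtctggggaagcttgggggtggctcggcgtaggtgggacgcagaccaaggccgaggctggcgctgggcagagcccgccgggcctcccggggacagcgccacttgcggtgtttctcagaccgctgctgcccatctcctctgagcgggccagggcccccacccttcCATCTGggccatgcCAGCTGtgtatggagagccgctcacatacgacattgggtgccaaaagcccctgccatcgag

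The next region was open in H82 and had no H146 overlap. CATSPER1, which encodes a sperm calcium channel subunit, is on the minus strand. Its region of 200 bp holds an E-box.
CATSPER1, chr11:66016535-66016734: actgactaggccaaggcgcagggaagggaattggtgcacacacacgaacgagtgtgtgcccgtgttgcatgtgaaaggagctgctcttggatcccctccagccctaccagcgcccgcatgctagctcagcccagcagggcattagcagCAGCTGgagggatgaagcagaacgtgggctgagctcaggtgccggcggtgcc

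The last pair was open in H146 and had no H82 overlap. The region of 210 bp beyond ADRB1, the beta-1 adrenergic receptor gene on the plus strand, holds a variant poly(A) signal, an AP-1 word and a FOXA word. It is poor in GC (37.6%). The region of 226 bp beyond TRAFD1, a gene for a regulator of innate immune signalling on the plus strand, is 55.3% GC and holds none of the words.
ADRB1, chr10:114046910-114047119: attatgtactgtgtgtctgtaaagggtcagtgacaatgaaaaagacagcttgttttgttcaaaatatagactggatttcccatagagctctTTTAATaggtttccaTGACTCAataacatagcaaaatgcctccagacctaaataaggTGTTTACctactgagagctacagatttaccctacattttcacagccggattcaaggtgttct
TRAFD1, chr12:112153608-112153833: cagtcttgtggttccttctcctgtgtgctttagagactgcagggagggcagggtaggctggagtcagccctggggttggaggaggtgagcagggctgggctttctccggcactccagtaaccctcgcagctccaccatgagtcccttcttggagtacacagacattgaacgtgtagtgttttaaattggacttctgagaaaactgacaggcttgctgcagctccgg

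Regions at gene 3′ ends made up the same small part of each atlas. They were 1.34% of the 149589 distal regions in H82 and 1.33% of the 124926 in H146. The difference was 0.0153 percentage points (SE 0.0306), with p = 0.817 in a two-sided sign-flip permutation test over chromosomes. It was higher in H82 on 7 of 22 chromosomes. H82 had 1.21 times as many of these regions as H146 and 1.2 times as many distal regions of all kinds. More regions lay at 3′ ends before start sites were considered. Of 4660 H82 regions within 500 bp of an end, 2653 (56.9%) were also within 2 kb of a TSS and were left out, and of 3920 in H146, 2263 (57.7%).

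Counted by gene, 13162 of 19111 protein-coding genes had an end over 2 kb from any TSS. H82 had a region at 2068 of these ends, which is 15.7%, and H146 at 1714, which is 13.0%. Both lines had one at 1170 ends (8.89%), H82 alone at 898 (6.82%), H146 alone at 544 (4.13%) and neither at 10550 (80.2%). Some genes share an end, and over the 13083 distinct ends the shares were 15.6% and 12.9%. The share varied between chromosomes. In H82 it ran from 5.55% of ends on chromosome 4 to 27.4% on chromosome 17, and in H146 from 5.84% on chromosome 21 to 21.6% on chromosome 18.

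Region centres over 2 kb from any TSS were denser at gene ends than in the rest of the distal genome. This count is by centre, so it includes regions whose edge came nearer to a TSS, which the rule left out. It held 1192 centres at ends and 152668 elsewhere in H82, and 1056 and 127337 in H146. Distal bases within 500 bp of an end came to 12.7 Mb and the other distal bases to 2384 Mb. H82 had 93.6 region centres per Mb at the ends and 64.0 elsewhere, a log2 ratio of 0.55 (SE 0.0915, higher on 20 of 22 chromosomes, p = 0.00015, sign-flip permutation test). H146 had 83.0 and 53.4 per Mb, a log2 ratio of 0.63 (SE 0.072, 21 of 22 chromosomes, p = 1e-05, the smallest this permutation test can give). With a window of 250 bp the H82 ratio was 0.26 and no longer past the threshold (permutation p = 0.0545).

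Near the genes themselves the picture turned. The end was a local low point of accessibility. Within 500 bp of the end, H82 regions covered 9.07% of distal bases, and 500 to 1000 bp away they covered 10.5%. This fall of 1.41 percentage points (SE 0.173) was seen on all 22 chromosomes (permutation p = 1e-05). H146 covered 7.07% and 7.81%, a difference of -0.742 points (SE 0.106), and the end was higher on 1 of 22 chromosomes (permutation p = 1e-05). The lowest 50 bp bin within this window was centred 75 bp before the end in both lines, at 7.54% (SE 0.827) in H82 and 6.03% (SE 0.529) in H146. Coverage within 500 bp was not shown to differ from that 4 to 5 kb away. There it was 8.67% in H82 (difference 0.399 points, SE 0.522, permutation p = 0.884) and 6.18% in H146 (0.89 points, SE 0.353, permutation p = 0.193). Against the distal genome 500 to 5000 bp from an end, region density at the ends was lower in H82 (log2 -0.17, SE 0.0745, permutation p = 0.00096) and near equal in H146 (log2 -0.01, SE 0.0399, permutation p = 0.32). These neighbourhood comparisons were added after the coverage profile was seen.

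**Figure D1:**
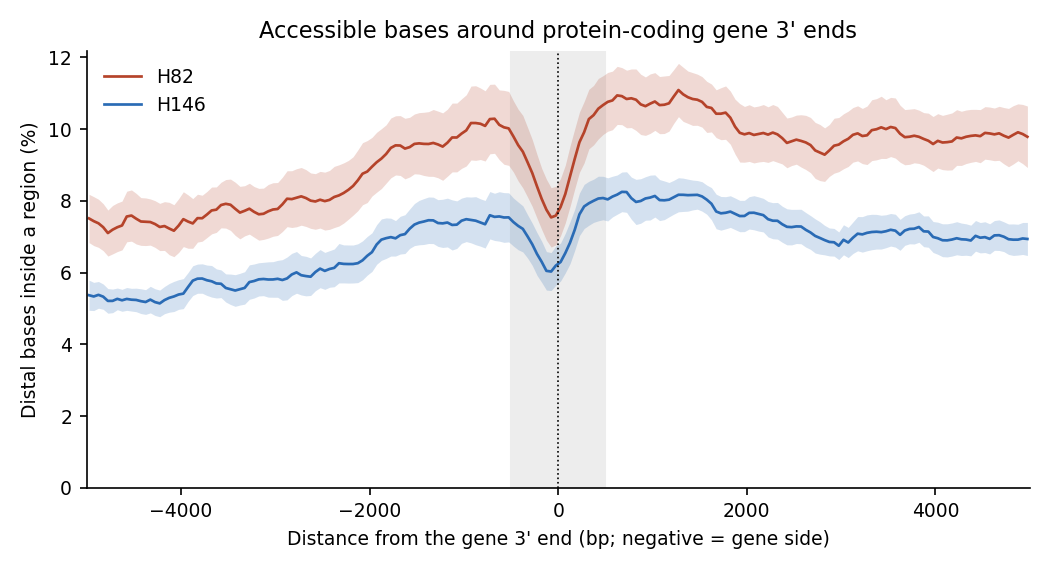
Share of distal bases inside a region (%, vertical axis) in 50 bp bins by distance from the gene 3′ end (bp, horizontal axis; gene side to the left), with H82 in red and H146 in blue and bands of 1 jackknife SE over chromosomes. Both curves dip at the end, to 7.54% in H82 and 6.03% in H146, between shoulders of 10.1% and 10.8% (H82) and 7.49% and 8.1% (H146) at 500 to 1000 bp; the grey band marks 500 bp on either side.

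The profile was not symmetric. At 4 to 5 kb, coverage was lower on the gene side (7.35% in H82, 5.26% in H146) than beyond the end (9.79% and 6.95%). The regions themselves also leaned outwards. In H82, 918 had their centre on the gene side and 1088 beyond the end, a difference of -8.47 points of all members (SE 2.87, permutation p = 0.00064). In H146 the counts were 773 and 883 (-6.64 points, SE 2.23), which did not pass the permutation test (p = 0.157). The test weights each chromosome equally, and 5 of 22 chromosomes leaned to the gene side in each line. With a window of 1000 bp the H146 lean was -5.69 points (permutation p = 0.00145).

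A region could cover the end or stop short of it. In H82, 601 regions (29.9%) covered the end, 643 lay on the gene side and 763 beyond it. Those that covered the end were the widest, with a median of 1187 bp against 448 bp and 465 bp, and 73.9% of them overlapped an H146 region against 56.5% and 56.6%. In H146, 552 (33.3%) covered the end with a median of 939 bp and 86.2% shared. The other H146 regions had medians of 442 bp and 478 bp, with 72.0% and 72.6% shared. A wide region meets an end more easily, so this order follows in part from the rule. Of the H82 regions beyond the end, 9.83% touched an annotated exon, against 94.7% of those on the gene side.

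Regions at gene ends were wider than other distal regions when chosen by their nearest edge. The median was 562 bp in H82 against 439 bp, a difference of 123 bp (SE 13.8, 20 of 22 chromosomes, permutation p = 1e-05). In H146 it was 572 bp against 452 bp, a difference of 120 bp (SE 20.9, 19 of 22 chromosomes, permutation p = 0.00031). The difference was gone when a region was counted by its centre. It was then 2 bp in H82 (SE 15.8, permutation p = 0.796) and -4 bp in H146 (SE 11.4, permutation p = 0.301). The rule favours wide regions, since a wide region comes near an end more easily. Under it 216 H82 regions (10.8%) and 162 H146 regions (9.78%) were at least 2 kb wide, given here as a description. At the edge of the rule, 290 H82 regions lay in the last 100 bp inside the window with a median of 424 bp, and 294 in the first 100 bp outside it with a median of 418 bp. For H146 these were 223 regions of 449 bp and 222 of 434 bp. At the other edge, 212 H82 regions kept the TSS distance by less than 500 bp (median 629 bp) and 275 missed it by less than 500 bp (673 bp), with 165 (627 bp) and 226 (660 bp) in H146.

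The widest H82 region at an end, and the widest without an H146 overlap, covered the end of NAA30 at chr14:57415664-57427947. NAA30 encodes a catalytic subunit of an N-terminal acetyltransferase. The region was 12284 bp wide and H146 had nothing within 10 kb of this end. The region at BRF2, which encodes a subunit of an RNA polymerase III initiation factor, was 8685 bp wide and 86.9% covered by H146 regions. The region at the ends of ADGRD2 (an adhesion receptor gene) and NR5A1 (which encodes the nuclear receptor SF-1) was 8506 bp wide and 54.2% covered. At SLC30A3, a zinc transporter gene of synaptic vesicles, it was 8404 bp wide, and H146 covered 23.6%. At RFLNA, which encodes an actin-binding protein, it was 8397 bp wide and 47.2% was covered. Thus 4 of these 5 were also open in H146, in part.

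The widest H146 region lay beyond the end of KIF26A, an atypical kinesin gene, at chr14:104181360-104196273. It was 14914 bp wide, and 5 H82 regions covered 80.1% of it. The region at the ends of MRPS18A (a mitochondrial ribosomal protein gene) and RSPH9 (a ciliary radial spoke gene) was 8635 bp wide and 91.9% covered by H82. WNT3A, a Wnt ligand gene, had a region of 7699 bp with its centre 56 bp to the gene side of the end, of which 71.6% was covered. The other two, ZBTB7C (a zinc-finger gene, 7545 bp) and EEFSEC (which encodes the selenocysteine elongation factor, 7392 bp), were 77.0% and 95.7% covered. All 5 overlapped open chromatin of H82.

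Regions at gene ends were shared between the lines more often than other distal regions. Sharing here means an overlap of at least 1 bp. Of all distal H82 regions 55.8% overlapped an H146 region, and of all distal H146 regions 66.6% overlapped an H82 region. At gene ends, 1239 H82 regions were shared (61.7%), 5.98 percentage points above the other distal regions (SE 1.49, 19 of 22 chromosomes, permutation p = 0.0007). In H146, 1275 were shared (76.9%), 10.5 points above (SE 1.27, 20 of 22 chromosomes, permutation p = 0.00014). That left 768 regions in H82 alone and 382 in H146 alone. The excess in H82 and in H146 was not shown to differ (adjusted permutation p = 0.753).

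Wider regions were shared more often, and the excess shrank once width was matched. Compared with other distal regions of the same width, the excess was 1.80 points in H82 (SE 1.52, permutation p = 0.0857) and 4.41 points in H146 (permutation p = 0.0134). Counted by centre and matched on width it was 2.35 points in H82 (SE 1.81, permutation p = 0.00212) and 5.01 points in H146 (SE 1.21, permutation p = 0.0165). By centre alone it was 2.39 points in H82 (permutation p = 0.00231) and 4.62 points in H146 (permutation p = 0.244). Matched on width and GC content it was 0.0273 points (permutation p = 0.314) and 1.81 points (permutation p = 0.468). With an overlap of 50% of both regions it was -0.757 points in H82 (permutation p = 0.484) and 1.44 points in H146 (permutation p = 0.971). The permutation test weights each chromosome equally, while the points and SE are over all regions pooled. The small H82 p-values by centre therefore do not measure the pooled excess, which lay near its SE. Among H82 regions of at least 2000 bp, 90.3% of those at ends and 81.9% of the others were shared. Among those of 200 bp, the smallest width listed, 36.9% and 40% were. In H146 the same shares were 98.1% and 99.5%, and 46.0% and 41.3%.

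**Figure D2:**
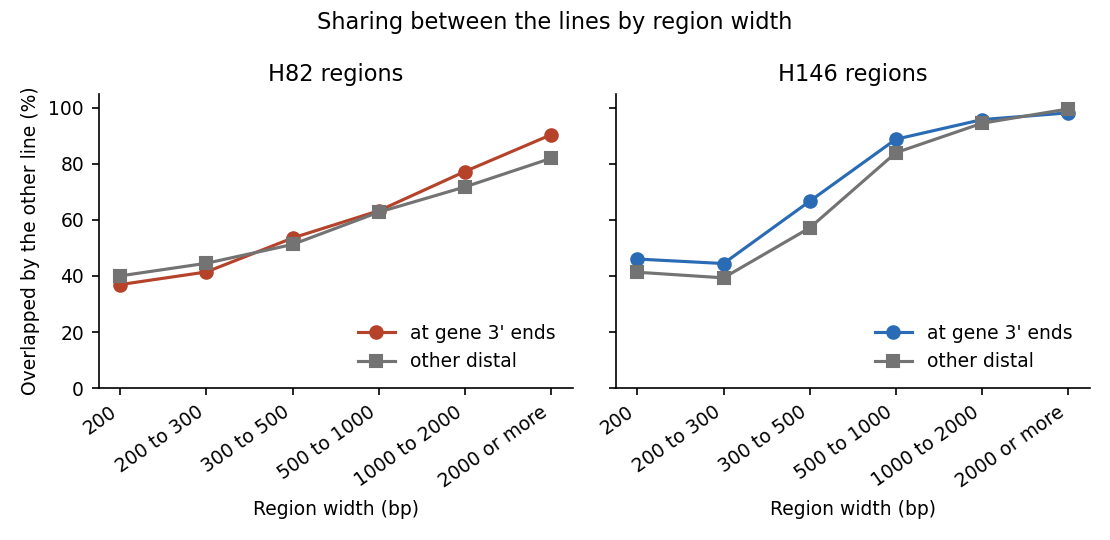
Share of regions overlapped by the other line (%, vertical axis) in 6 classes of region width (bp, horizontal axis; each class stops just below its upper limit), for H82 on the left and H146 on the right, with circles for regions at gene 3′ ends and grey squares for other distal regions. Sharing at gene ends reaches 90.3% in the widest H82 class and 98.1% in the widest H146 class, against 36.9% and 46.0% at 200 bp; in H82 regions from 500 to under 1000 bp it is 63.2% at ends and 62.7% elsewhere.

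Most shared regions overlapped a region of the other line that the rule also counted. This follows in part from the rule, since a region that overlaps one near an end tends to be near that end. Of the 1239 shared H82 regions, 1074 overlapped an H146 region that also counted as a 3′ end region, and 165 overlapped only H146 regions that the rule left out. Of the 1275 in H146 these numbers were 1080 and 195. The median shared H82 region was covered whole (100%), and the median shared H146 region was covered to 93.5%. Shared regions were wider, with a median of 778 bp against 416 bp for H82 alone and 715 bp against 308 bp for H146 alone.

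**Figure D3:**
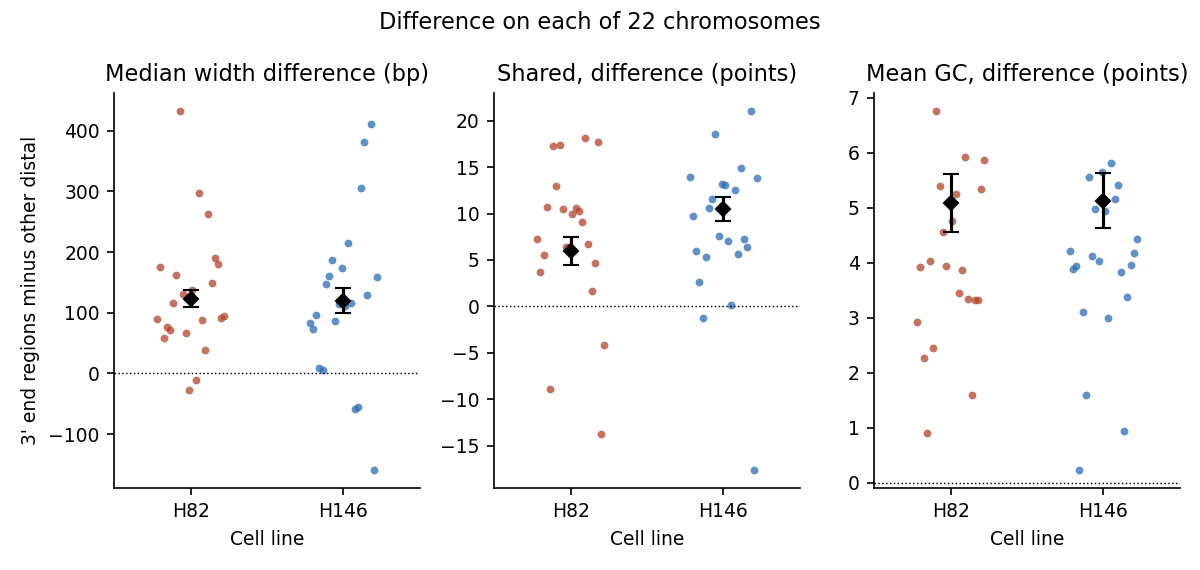
Regions at gene 3′ ends minus other distal regions on each of 22 autosomes, for median width (bp), share overlapped by the other line (percentage points) and mean GC content (percentage points), with H82 in red and H146 in blue. Each point is a chromosome, and the diamond and bar give the value over all chromosomes and its jackknife SE; GC content is above 0 on 22 of 22 chromosomes in both lines, between 0.909 and 6.75 points in H82 and between 0.229 and 5.81 in H146.

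Some sites stood alone. In H82, 135 regions at gene ends (6.73%) had no H146 region within 10 kb of the end, and in H146, 50 (3.02%) had no H82 region there. No such share over other distal regions or all ends is at hand, so these counts are a description only. After NAA30, the widest in H82 lay at FIGN (a microtubule-severing enzyme gene), at 4318 bp, and at SLC35F4 (a solute carrier gene), at 4079 bp. SPATA31C1 (1877 bp), a gene of a family with near-identical copies, and MARCHF5 (1704 bp), which encodes a mitochondrial ubiquitin ligase, followed. NAA30, SLC35F4 and OTX2 lie close together on chromosome 14. In H146 the widest lay beyond SDHA, which encodes a subunit of succinate dehydrogenase, at chr5:257210-262570. It was 5361 bp wide, and SDHA also has near-identical copies elsewhere. The others were far smaller. They lay at LRRC42 (671 bp), SYT1 (560 bp), TFAP2A (540 bp) and KRT75 (538 bp). SYT1 encodes the synaptic vesicle calcium sensor, TFAP2A the transcription factor AP-2 alpha and KRT75 a hair follicle keratin.

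Ends with 2 regions were rare, at 49 ends in H82 and 41 in H146. In H82 the largest pair lay around the ends of SSBP3 and MRPL37, which share it, with a summed width of 6647 bp. SSBP3 encodes a cofactor of LIM-domain transcription factors and MRPL37 a mitochondrial ribosomal protein. RAX, an eye-field homeobox gene, had 5864 bp. ENC1, which encodes an actin-binding protein of neurons, had 5083 bp, and FAM240C had 4928 bp. In H146 the pairs lay at CLYBL (a mitochondrial lyase gene, 3711 bp), AMBN (the enamel protein ameloblastin, 3324 bp), RAB43 with the read-through gene ISY1-RAB43 (2918 bp) and PHLDB1 (2658 bp).

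Genes with an open promoter had an open end more often. A promoter was called open when a region of the same line lay at most 1 kb from the start of the gene record. In H82, 16.9% of 10720 ends with an open promoter had a region, against 10.6% of 2442 without, a difference of 6.27 points (SE 1.3, 20 of 22 chromosomes, permutation p = 0.00024). In H146 it was 14.1% of 10321 against 9.15% of 2841, a difference of 4.94 points (SE 1.17, 19 of 22 chromosomes, permutation p = 0.00072). By region centre the H146 difference was 1.81 points (permutation p = 0.117).

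Counting the TSS of every transcript of the gene instead, 144 H82 regions (7.17%) and 145 H146 regions (8.75%) lay at genes with no region within 1 kb of any of them. No such share over all ends is at hand, so these counts are a description only. By the start of the gene record, 2442 of all 13162 ends had no promoter region in H82 and 2841 had none in H146. The widest regions at genes without a region at any TSS in H82 lay at CPA4 (a carboxypeptidase gene, 3138 bp), OR2V2 (an olfactory receptor gene, 2667 bp) and an unnamed gene model on chromosome 19 (2458 bp). CRYGB, an eye lens crystallin gene, had one of 2239 bp, and PLA2G2F, a secreted phospholipase gene, one of 1873 bp. In H146 they lay at CLDN15 (a tight junction claudin gene, 3745 bp) and at the ends of M1AP (a meiosis gene) and DOK1 (an adaptor protein gene), at 3255 bp. OR2V2 had one of 2765 bp, HTR3D (a serotonin receptor subunit gene) one of 2580 bp and GZMM (a granzyme gene) one of 2507 bp. Each of these 5 H146 regions overlapped an H82 region, by 94.6% or more of its length. In H82 the cover by H146 ran from 0% at PLA2G2F to 100% at OR2V2 and CRYGB.

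In H146, convergent gene ends were open more often than other ends. An end was called convergent when a gene on the other strand ended within 1 kb, facing it. H146 had a region at 169 of 858 such ends (19.7%) and at 12.6% of the other 12304, a difference of 7.14 points (SE 1.62, 16 of 21 chromosomes, permutation p = 0.00292). H82 had 196 of 858 (22.8%) against 15.2%, a difference of 7.63 points (SE 2.36), which did not pass (14 of 21 chromosomes, permutation p = 0.0674). With convergent ends taken within 5 kb the H82 difference passed, at 6.0 points (SE 1.58, permutation p = 0.00453). Over 5 kb from any TSS the H146 difference was 3.96 points (permutation p = 0.226).

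Open ends lay in GC-rich DNA. Within 500 bp of the end, GC content averaged 49.5% at the 2068 ends with an H82 region and 41.6% at those without, 7.87 points apart (SE 0.423, 22 of 22 chromosomes, permutation p = 1e-05). In H146 it was 49.3% and 41.9%, 7.43 points apart (SE 0.367, 22 of 22 chromosomes, permutation p = 1e-05). By class it averaged 50% at ends open in both lines, 48.8% in H82 alone, 47.9% in H146 alone and 41.3% in neither. The share of ends with a poly(A) signal did not differ past the threshold. AATAAA or ATTAAA was present in the last 50 bases of 73.3% of ends with an H82 region and 75.3% of those without (difference -2.04 points, SE 1.16, permutation p = 0.0735). In H146 it was 73.2% and 75.3% (-2.09 points, SE 1.31, permutation p = 0.218). The median gene was 27.9 kb long at ends open in both lines and 38.8 kb at ends open in neither, given here without a test.

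The regions themselves were richer in GC than other distal regions. They averaged 53.7% in H82 against 48.7%, a difference of 5.09 points (SE 0.53, 22 of 22 chromosomes, permutation p = 1e-05). In H146 they averaged 53.1% against 48.0%, a difference of 5.13 points (SE 0.495, 22 of 22 chromosomes, permutation p = 1e-05). The median over single chromosomes was smaller, at 3.93 and 4.07 points. The difference was far smaller against distal regions 500 to 5000 bp from an end. It was 1.03 points (SE 0.291, permutation p = 0.0385) there in H82 and 0.618 points in H146 (SE 0.296, permutation p = 0.361).

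Among words of transcription factor motifs, those rich in G and C were denser at gene ends. A set of 12 words was counted on both strands as matches per kb, and no overlap was removed. SP/KLF factors bind GGGCGG, a GC-box. It was 0.60 higher on the log2 scale at H82 gene ends than in other distal regions (SE 0.123, adjusted permutation p = 0.00369) and 1.02 higher in H146 (SE 0.118, adjusted permutation p = 6e-05). It had a match in 33.5% of H82 regions at ends and 16.1% of other distal regions. The ETS word CCGGAAG was 0.56 and 0.83 higher (adjusted permutation p = 0.00653 and 6e-05), in 6.38% and 2.78% of the H82 regions. By region centre the GC-box was 0.40 and 0.51 higher and passed in neither line (adjusted permutation p = 0.373 and 0.0836). The ETS word by centre was 0.30 higher in H82 (adjusted permutation p = 0.134) and 0.68 higher in H146 (adjusted permutation p = 0.00398). In H82 regions of at least 500 bp the GC-box did not pass either (0.48, adjusted permutation p = 0.152). CTCF, which shapes chromatin loops, had 107 matches at H82 ends and was 0.51 higher (SE 0.155, adjusted permutation p = 0.0233). In H146 it had 104 matches and was 0.46 higher (SE 0.175), which did not pass (adjusted permutation p = 0.246). By region centre CTCF passed in both lines, at 0.81 in H82 (adjusted permutation p = 0.00868) and 0.92 in H146 (adjusted permutation p = 0.00204). In the central 200 bp it passed in H146 (0.66, adjusted permutation p = 0.00185) but not in H82 (0.43, adjusted permutation p = 0.091). With matches per kb taken as a difference, with nothing added to counts, CTCF passed in neither H82 nor H146 (adjusted permutation p = 0.178 and 0.928). CTCF was searched as a degenerate word and is given by name.

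Words rich in A and T were scarcer. The poly(A) signal AATAAA was -0.35 on the log2 scale in H82 (SE 0.0546, adjusted permutation p = 0.00172) and -0.44 in H146 (SE 0.0591, adjusted permutation p = 8e-05). Its variant ATTAAA was -0.65 and -0.62. OTX2, a homeobox factor expressed in SCLC-N, binds TAATCC, which was -0.55 in H82 and -0.24 in H146. The FOXA word TGTTTAC was -0.55 and -0.78, and the AP-1 word TGANTCA was -0.58 and -0.57. Each of these passed with an adjusted permutation p of at most 0.0157. A plain share of regions that hold the word does not divide by length, and by that measure AATAAA was more frequent at ends, in 43.7% of H82 regions against 38.7% and in 46.4% of H146 regions against 42.3%. By region centre AATAAA was -0.08 in H82 (adjusted permutation p = 0.611) and 0.04 in H146 (adjusted permutation p = 0.0185). With a window of 250 bp it did not pass in H82 (-0.23, adjusted permutation p = 0.312) but did in H146 (-0.35, adjusted permutation p = 0.00074).

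E-boxes, bound by basic helix-loop-helix factors such as NEUROD1, differed little. The form CAGCTG was 0.14 higher on the log2 scale in H82 (adjusted permutation p = 0.00199) and 0.09 higher in H146 (adjusted permutation p = 0.668). CAGATG, the form NEUROD1 prefers, was -0.12 in H82 (adjusted permutation p = 0.00898) and 0.03 in H146 (adjusted permutation p = 0.668). The TEAD word CATTCC was -0.18 and -0.12 (adjusted permutation p = 0.0104 and 0.0046). NFI had 3 matches in H82 and 1 in H146, too few to read. Its test followed the 0.5 added to each count and ran against the sign of the pooled ratio, so no direction is given for it. Of the other 11 words, 11 passed in H82 (4 higher, 7 lower) and 8 in H146 (2 higher, 6 lower).

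Few words set the ends apart from their surroundings. Against distal regions 500 to 5000 bp from an end, 2 of the 11 words other than NFI passed in each line. The adjustment kept NFI, whose small p-value lowers the adjusted value of words ranked after it. It was not run without NFI, so the pass of CAGCTG in H146, which lay near the threshold, may rest on NFI. The OTX2 word was -0.44 on the log2 scale in H82 (SE 0.0744, adjusted permutation p = 0.00048), and CAGCTG was -0.10 in H146 (SE 0.0483, adjusted permutation p = 0.0405). The poly(A) signal passed in both and changed direction there. It was 0.16 higher on the log2 scale in H82 (SE 0.0771, adjusted permutation p = 0.0286) and 0.20 higher in H146 (SE 0.0685, adjusted permutation p = 0.00084).

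Neuroendocrine and neuronal genes had open ends more often than the average gene, as a plain count. The gene lists were drawn up with the study's themes in view, and no list was tested. Of 24 such genes with an end over 2 kb from a TSS, 8 had an H82 region (33.3%, exact Clopper-Pearson 95% interval 15.6 to 55.3) and 7 an H146 region (29.2%, 12.6 to 51.1). The same shares over all ends were 15.7% and 13.0%, which lie just inside these intervals. Those open in both lines numbered 5, among them DLL3, UCHL1, INSM1 and CHGA. DLL3, a Notch pathway ligand on the surface of SCLC cells, had regions of 1967 bp in H82 and 1776 bp in H146 that stopped 175 and 156 bp short of its end. UCHL1, a neuronal deubiquitinase gene, had regions of 1006 and 1137 bp across its end. INSM1, which encodes a neuroendocrine transcription factor, had 897 and 942 bp. CHGA, which encodes the secretory granule protein chromogranin A, had 797 and 750 bp. In each of these 4 genes at least 88.5% of either region was covered by the other line.

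H82 alone had regions at NEUROD1, OTX2 and CPLX2. The NEUROD1 end, on the minus strand of chromosome 2, had a region of 1001 bp on the gene side (chr2:181668555-181669555) and one of 289 bp beyond the end (chr2:181667763-181668051). Neither had any H146 overlap, as at the TSS of the gene. OTX2 had a region of 6363 bp over its end at chr14:56793918-56800280, of which H146 covered 5.09% with a region of 324 bp outside the window. CPLX2, which encodes the synaptic vesicle protein complexin 2, had one of 206 bp. H146 alone had regions at STMN2 (200 bp), which encodes a neuronal microtubule regulator, and at SYT1, given above.

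**Figure D4:**
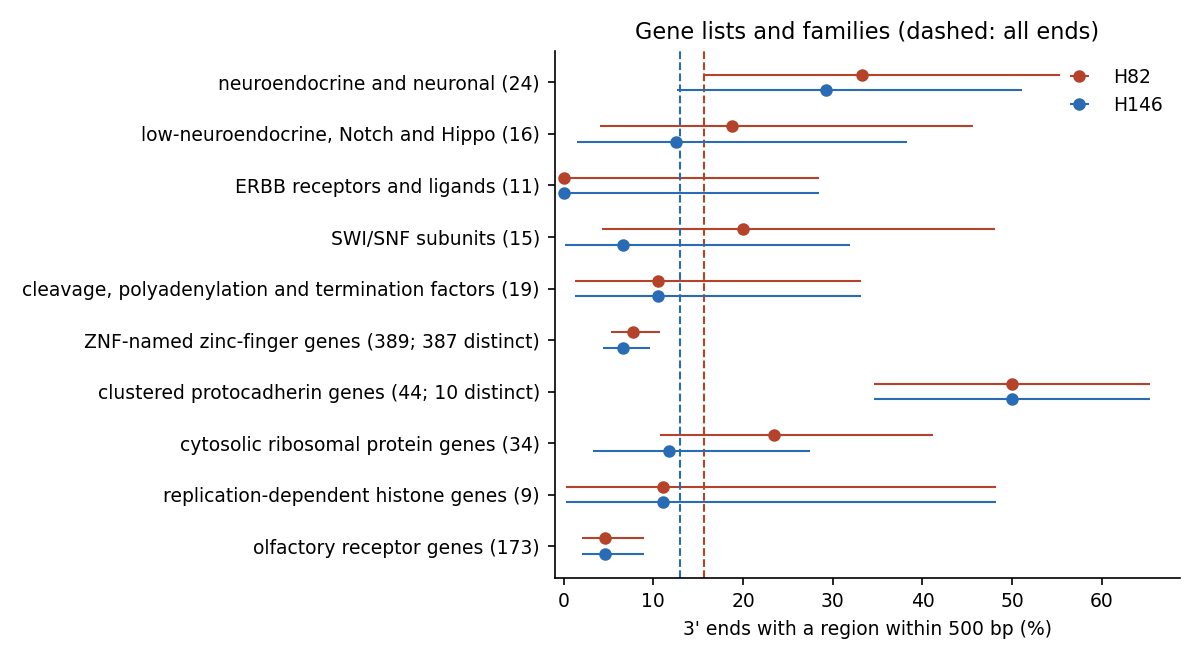
Share of gene 3′ ends with a region within 500 bp (%, horizontal axis) for 10 gene lists and families (number of ends over 2 kb from any TSS in brackets), with H82 in red and H146 in blue. Bars are exact 95% intervals and dashed lines give all ends, 15.7% and 13.0%; neuroendocrine genes sit at 33.3% and 29.2% with wide bars, and the 44 protocadherin genes share 10 distinct ends.

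The other short lists held few open ends. Of 16 genes of the low-neuroendocrine state and of Notch and Hippo signalling, 3 were open in H82 (18.8%) and 2 in H146 (12.5%). TEAD3, a Hippo transcription factor gene, was open in both lines (5388 and 3339 bp). CCN1, a Hippo target gene, had 556 bp and NOTCH1, a Notch receptor gene, had 676 bp in H82 without an H146 overlap. MYC, the proto-oncogene, had an H146 region of 564 bp over its end. In H82 a single region of 282037 bp spans that end and reaches start sites, so it was left out. Of 15 SWI/SNF subunit genes, whose products include the targets of FHD-286, 3 were open in H82 alone (20.0%) and 1 in H146 alone (6.67%). They were DPF1 (1568 bp), BICRA (625 bp) and PBRM1 (410 bp) in H82 and ARID1B (1085 bp) in H146. DPF1 is a subunit of the neural form of the complex. An H82 region of 580 bp covered 45.7% of the ARID1B region but lay outside the window. None of 11 ERBB receptor and ligand genes had a region in either line, where the exact 95% interval reaches 28.5%.

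Genes whose products make 3′ ends had open ends at 2 of 19, or 10.5%, in both lines. They were CPSF4, which encodes a subunit of the cleavage and polyadenylation factor (558 bp in H82 and 432 bp in H146), and TOX4, which encodes a subunit of a phosphatase complex of transcription (266 and 217 bp).

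Larger families were counted in the same way. Zinc-finger genes with ZNF names had a region at 30 of 389 ends in H82 (7.71%, exact 95% interval 5.26 to 10.8) and 26 in H146 (6.68%, 4.41 to 9.64). Olfactory receptor genes, which are silent in most tissues, had 8 of 173 in each line (4.62%, 2.02 to 8.91). Both families lay below all ends. Ribosomal protein genes had 8 of 34 in H82 (23.5%) and 4 in H146 (11.8%), and replication-dependent histone genes, whose transcripts carry no poly(A) tail, had 1 of 9 in each, at different genes. Clustered protocadherin genes, which give neurons their surface identity, had 22 of 44 in both lines (50%). Many of these genes share 1 end, so this was 2 of 10 distinct ends (20%), beside 15.6% and 12.9% of all distinct ends.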

How the data were processed

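The cells, treatments and ATAC-seq libraries are as the labels and the study's methods give them. The authors trimmed reads with Trim Galore 0.4.4, aligned them to hg38 with bowtie2 2.3.4, used Picard to drop duplicate reads and called peaks per sample with MACS2. They then removed blacklisted regions and merged all peaks of a line within 500 bp. In the methods, 3 H146 controls formed one batch and the fourth control was processed with the treated cells, but the labels do not say which is which. The deposited values used here are the region starts and ends of these 2 atlases, in bp and with no signal, score or count. Merging makes a region wider than a single site, and more or deeper libraries add regions to an atlas. Coordinates are given 1-based.

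Regions were classified with Python 3.11.15, numpy 2.4.6 and pandas 2.3.3 against GENCODE release 44 on hg38, the build of the files. Overlaps were checked against bedtools 2.31.1. The 3′ end of a gene was the end of its gene record. Values over chromosomes 1 to 22 were tested by flipping the signs of the per-chromosome differences, two-sided, with 100000 resamples and seed 1. Standard errors come from a jackknife over chromosomes. The test weights chromosomes equally, while the differences and ratios printed are pooled over all chromosomes. For ratios, 0.5 was added to each count per chromosome. Benjamini-Hochberg adjustment was over 12 words, or over 19 measures between the lines. The tests of differences in means or medians, of matched differences and of ratios were tried on simulated data with known differences. Other statistics were not, among them the member share, the lean about the end, matches per kb taken as a difference and the tests between the lines. Sparse counts were not simulated either. 0 columns of per-sample values were left out. Intervals cover counting error only.

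The members and gene lists were chosen with earlier results of these data known. Named regions were the 5 widest per line, the 5 widest with no region of the other line within 10 kb, the 5 widest at genes with no region of the line within 1 kb of any TSS, ends with 2 regions by summed width, and all members at genes of the first 5 lists, of which up to 6 per list open in both lines. Words were all named by size. The 2 regions nearest to their end per class of sharing, at most 300 bp and outside exons, gave the sequences, which are from the hg38 reference. A gene of the first list and 1 of the sequences are not reported here. Alternatives covered the window, the TSS distance, all transcript ends, the comparison set, matching on width and GC, and chromosomes 8 and 14.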

Additional observations from a re-analysis of the deposited data

Results flagged for a closer look

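Of 19 measures, 4 differed between H82 and H146 when the difference between the lines was put to the sign-flip permutation test. Most of the measures set gene 3′ ends against the other distal regions or genome. The rest compared the sides of the end, or ends by promoter or by convergence. The excess of density was smaller in H82, with log2 ratios of 0.55 and 0.63 and a difference of -0.087 (adjusted permutation p = 0.0319, higher in H82 on 7 of 22 chromosomes). The direction turned with a window of 1000 bp, where the ratios were 0.76 in H82 and 0.73 in H146. The GC-box GGGCGG was less enriched in H82, at 0.60 against 1.02, a difference of -0.42 on the log2 scale (adjusted permutation p = 0.0248). The OTX2 word TAATCC was lower relative to other distal regions in H82, at -0.55 against -0.24, a difference of -0.31 (adjusted permutation p = 0.0248). The E-box CAGATG was at -0.12 in H82 and 0.03 in H146, a difference of -0.15 (adjusted permutation p = 0.0319). For each of these words H82 was higher on 5 of 22 chromosomes, and H82 was the lower line under all 13 alternatives run. The size varied, and no difference between the lines was tested under an alternative. It ran from -0.53 to -0.034 for the GC-box, which stood at -0.11 by centre and -0.10 against neighbours. For the OTX2 word it ran from -0.41 to -0.18, and for CAGATG from -0.19 to -0.041. In the H82 comparison set OTX2 words are common, at 0.816 per kb of other distal regions against 0.466 in H146, and CAGATG stands at 1.06 and 0.896 per kb. The part that these other distal levels play was not tested.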

How the results depend on the processing

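No paired analysis was possible because the atlases hold no values per library and the replicate numbers belong to no column. For the same reason leaving out a library was not possible. Density is already counted by region centre, so that alternative gave no value for it. Depth per library is unknown and limits every count. Of the tested values that answer a comparison, 135 kept their direction and their side of the threshold under an alternative. The others follow, and the cause of each change was not tested. For the member share of distal regions, H82 minus H146 was -0.0218 points with a window of 250 bp, -0.0045 over 1 kb from a TSS and -0.0287 by centre. The density log2 ratio was 0.26 in H82 with 250 bp, and -0.17 and -0.014 in H82 and H146 against the distal genome 500 to 5000 bp away, an alternative chosen after seeing the data.

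The width difference was 2 and -4 bp by centre, and 6 and 3 bp by centre against gene-body regions. The sharing excess was -0.757 and 1.44 points with 50% overlap, 0.0273 and 1.81 matched on width and GC, and 2.67 and 0.706 against neighbours 500 to 5000 bp away matched on width. In H82 it was 1.80 matched on width alone, and in H146 4.62 by centre. The GC difference was 0.77 and 0.305 points against neighbours matched on width, and 0.618 in H146 against all neighbours. The H146 lean beyond the end became clearer with 1000 bp (-5.69 points), and so did convergent H82 ends within 5 kb (6.0). The H146 promoter difference fell to 1.81 points by centre, and the H146 convergent difference to 3.96 over 5 kb from a TSS. Called words numbered 6 in H82 by centre, 7 in the central 200 bp and 3 in each line against neighbours, 1 of them NFI.

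Members numbered, in H82 and H146, 5315 and 4396 with all transcript ends, 1287 and 1102 within 250 bp, 3344 and 2690 within 1000 bp, 1078 and 890 over 5 kb from a TSS, 1079 and 937 by centre, and 1115 and 933 of at least 500 bp. For single words, 44 values kept their sign but no longer passed, and 8 passed that had not. Not all of these are listed. Other single words changed sign, on the log2 scale. Against neighbours, the poly(A) signal stood at 0.16 in H82 and 0.20 in H146, its variant at 0.10 in H146, CAGCTG at -0.10 in H146, FOXA at 0.14 in H82, CTCF at -0.17 and -0.37, and ETS at -0.078 in H82. By share of regions with a match, the poly(A) signal stood at 0.18 and 0.13, CAGATG at 0.23 in H82, OTX2 at 0.12 in H146, FOXA at 0.0068 in H82, and TEAD at 0.28 and 0.27. By centre, H146 had 0.040 for the poly(A) signal and 0.047 for TEAD. CAGATG in H146 was -0.0070 with 1000 bp and -0.012 against gene-body regions. NFI in H82 was 0.71 in the central 200 bp.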
